A study of Drosophila melanogaster with 51 samples.

Results

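Transcript ratios of 5 Drosophila melanogaster genes that act on damaged DNA, mre11, rad50, nbs, Xpc and p53, were followed in larvae mutant for the COP9 signalosome. The members are the array entries annotated to these 5 symbols, 1 entry each, among 6187 measured features of which 4698 carry a gene name. The annotation identifiers are CG16928 for mre11, CG6339 for rad50, CG6754 for nbs, CG8153 for Xpc and CG33336 for p53. Whole larvae of 4 genotypes were used, csn4null and csn5null, which are null alleles of the subunits CSN4 and CSN5, and csn51 and csn53, which by their names are CSN5 alleles. Each genotype was sampled at 60, 72 and 96 h after egg deposition, which gives 12 groups. On each array, RNA of mutant larvae in one dye was hybridised together with RNA of age-matched wild-type larvae, named w118 in all labels but 1, in the other dye. Of the 51 arrays, csn4null had 3, 4 and 4 at the 3 ages and csn5null had 5, 4 and 4. The allele csn51 had 4, 4 and 5 arrays, and csn53 had 5, 4 and 5.

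The proteins Mre11, Rad50 and Nbs form a complex that binds the ends of broken DNA, holds and trims them, and switches on the checkpoint kinase ATM. Xpc recognises distorted DNA and starts nucleotide excision repair, and p53 is a transcription factor that drives the response to radiation damage, including cell death, in flies. The COP9 signalosome, through its catalytic subunit CSN5, strips Nedd8 off cullins, proteins around which many ubiquitin ligases are built.

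Every value below is a log2 ratio of mutant over wild type, so that 0 is the level of wild-type larvae, and the ratio of one gene says nothing of its level relative to another gene. The sources used here do not give which channel stands on top of a deposited ratio. Every sign was turned, so that the ratio is probably that of mutant larvae on top, since CSN4 in csn4null and CSN5 in csn5null then had fitted values between -2.47 and -2.19 for CSN4 and between -4.45 and -2.03 for CSN5. Neither target was called in csn51 or csn53, so these arrays do not set their own direction. The lowest correlation between arrays of one dye orientation was -0.301, between a csn5null and a csn51 array at 60 h. Between arrays of opposite dyes the lowest was -0.34, again between a csn5null and a csn51 array at 60 h. The deposited number format split the arrays by dye in the same way in all 4 genotypes, which is the basis for giving all genotypes one direction. Within groups of csn51 or csn53, 29 pairs of arrays with opposite dyes correlated at 0.461 or more. These pairs show that both dyes ran one way within a group. They cannot show that csn51 and csn53 ran the same way as the nulls. If csn51 and csn53 ran the other way, each of their rises would be a fall of the same size, and the differences from csn5null take the values given with the processing alternatives.

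Arrays of csn5null stood apart from their groups, namely replicate 5 at 60 h, replicate 3 at 72 h and replicate 3 at 96 h. Their median correlations with the other arrays of their groups were -0.022, -0.005 and 0.065. CSN5 lay at -0.32 on the array labelled csn5null 72 h replicate 3 and at -0.01 on that labelled csn5null 96 h replicate 3, so the target goes against both labels. On the array labelled csn5null 60 h replicate 5 it lay at -4.78, the lowest of the 60 h arrays. For the 5 members, the csn5null values in each comparison are therefore also given without these 3 arrays where a call was made or changed. The array csn5null 96 h replicate 4 was kept there, with CSN5 at -1.16, against -3.84 and -3.11 on replicates 1 and 2. The labels of all 5 csn5null arrays at 60 h name the same number of w118 sample, so their wild-type RNA may be shared. Differences in the rate of development or in cell makeup between mutant and wild-type larvae were not measured, and in whole larvae fewer cells of a type and less RNA per cell cannot be told apart. The labels call the arrays of a group biological repeats, and p-values measure the spread between these samples only.

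Most calls of these genes were in the csn51 and csn53 alleles, where more of all features were called higher too. A gene is called here at an adjusted p under 0.05 in limma's moderated test over all features of a comparison. Over 59 tested combinations of member and group, 37 were called higher in mutant larvae and 0 lower, and no lower value had an unadjusted p under 0.05. The alleles csn51 and csn53 held 28 of these calls in 30 tests, and the nulls csn4null and csn5null held 9 in 29. All features leaned the same way, with 15.8% to 27.0% called higher in the allele groups and 4.54% to 15.1% in the null groups. In single arrays, the members were above 0 in all 64 values of csn51, in 69 of 70 of csn53, in 38 of 65 of csn5null and in 45 of 52 of csn4null. The members share arrays, so these values are not independent, and they were not counted over all features.

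In csn51 all 5 members were called higher at each age, against 24.1% of all features called higher at 60 h, 17.6% at 72 h and 27.0% at 96 h. Of all features, 8.43% were called higher at all 3 ages of csn51. In csn53 the counts were 4 members at 60 h, 4 at 72 h and 5 at 96 h, where 25.3%, 15.8% and 21.0% of features were called higher. The members rad50, nbs and Xpc were called higher in all 6 groups of the 2 alleles, as were 4.06% of features. Members were chosen with earlier results of these data known, so the shares of features give a background and no test of the members. In csn4null 0 of 4 tested members were called at 60 h (9.77% of features higher), 2 of 5 at 72 h (12.6%) and 4 of 5 at 96 h (15.1%). In csn5null 0 members were called at 60 h (4.54% of features), 0 at 72 h (8.32%) and 3 at 96 h (9.47%). At an unadjusted p under 0.05, likewise, no csn5null member was called at 60 or 72 h, and none of csn4null at 60 h.

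**Figure D1:**
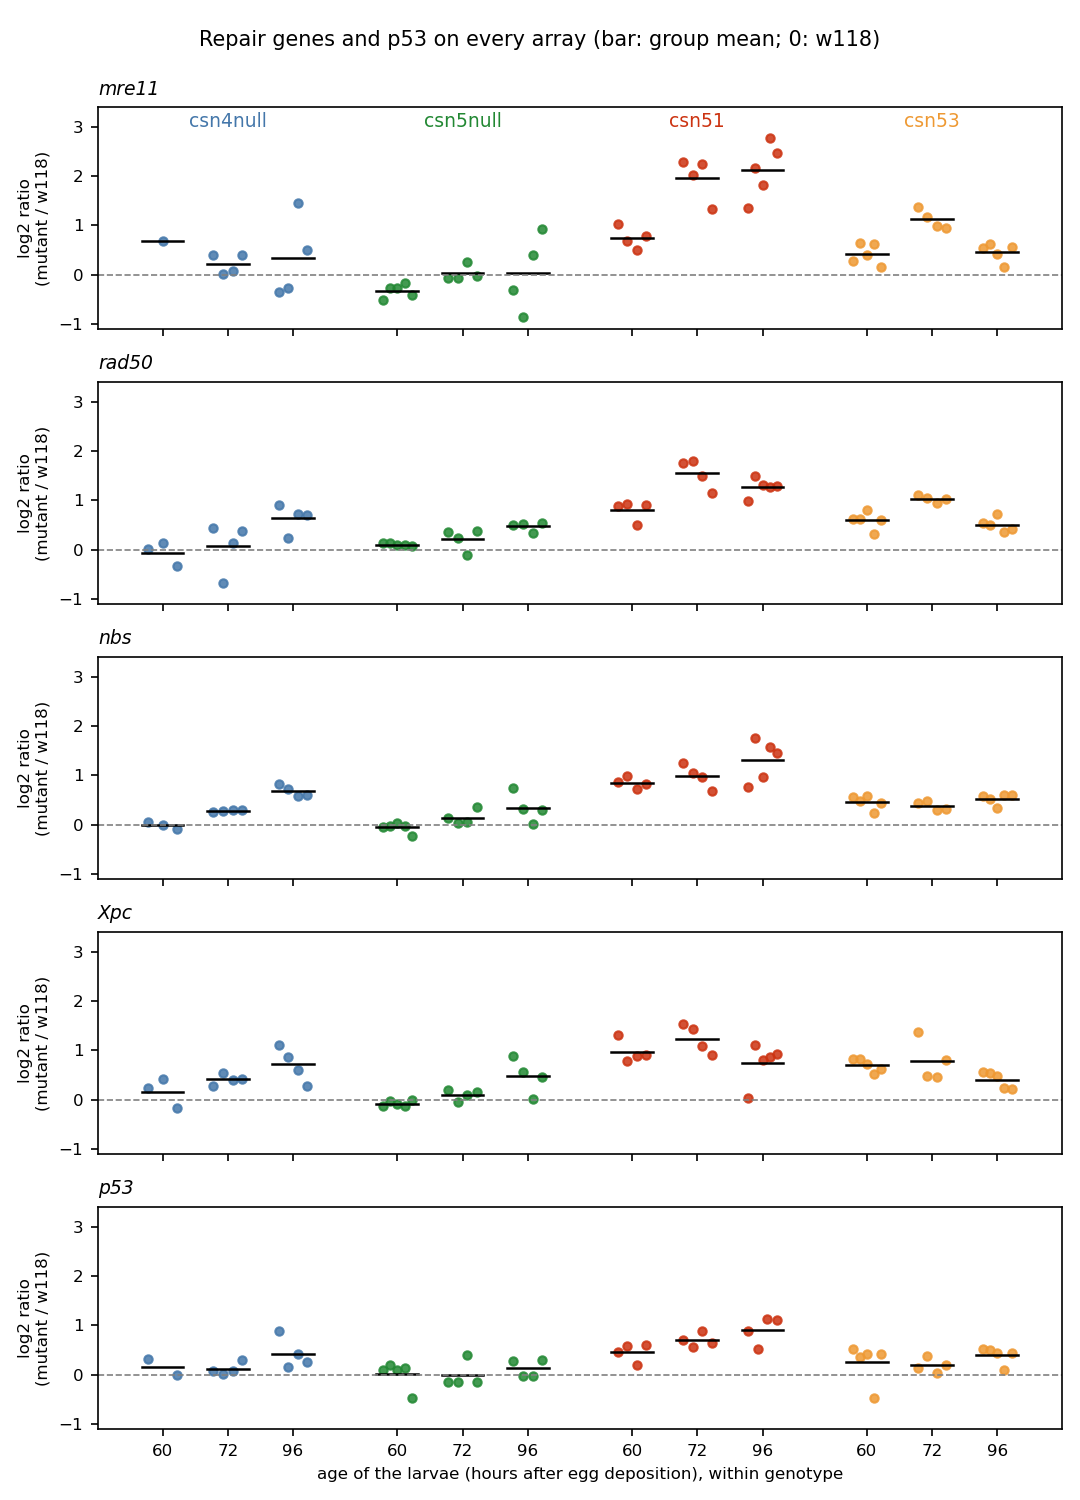
Log2 ratio of mutant over w118 larvae (vertical axis) for each member on every array, by genotype and by age in hours after egg deposition (horizontal axis). Points are arrays, bars are group means, and the dashed line at 0 is wild type. All 64 points of csn51 lie above 0, while csn5null holds 27 of the 35 points below it.

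The gene mre11 encodes the nuclease of the complex. In csn51 larvae its ratios were 1.02, 0.68, 0.50 and 0.78 at 60 h. They were 2.29, 2.02, 2.24 and 1.33 at 72 h. In the 96 h group they were 1.35, 2.17, 1.82, 2.77 and 2.47. Every csn51 array was thus above wild type. All arrays of 72 and 96 h exceeded those of 60 h, a separation not counted over all features. The fitted values of csn51 were 0.74 ± 0.20 (SE, n = 4), 1.92 ± 0.20 (n = 4) and 2.09 ± 0.18 (n = 5), with limma adjusted p-values of 0.00223, 8.46e-10 and 9.68e-13. A value of 2.09 is a ratio of 4.27, which placed mre11 at rank 101 of 5931 features in csn51 at 96 h. At 72 h it held rank 35 of 6183.

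In csn53 mre11 had its highest mean at 72 h. The arrays read 0.28, 0.64, 0.41, 0.63 and 0.16 at 60 h, 1.37, 1.18, 1.00 and 0.95 at 72 h, then 0.55, 0.63, 0.43, 0.15 and 0.56 at 96 h. All were above wild type. The 72 h arrays lay above every array of the other ages, which was likewise not counted over all features. The fitted values were 0.40 ± 0.18 (n = 5, adjusted p = 0.0579), 1.13 ± 0.20 (n = 4, adjusted p = 2.89e-05) and 0.44 ± 0.18 (n = 5, adjusted p = 0.0451). The call at 96 h was lost when any of 4 of its 5 arrays was left out, with adjusted p-values between 0.0654 (without replicate 3) and 0.17 (without replicate 2). The 60 h value was called without csn53 60 h replicate 5 (adjusted p = 0.0401), and also when any of 6 arrays of other groups was left out.

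No csn5null group was called for mre11. At 60 h the ratios were -0.50, -0.26, -0.27, -0.16 and -0.41. They were -0.07, -0.06, 0.27 and -0.02 at 72 h, where 0.27 belongs to the array that stood apart. At 96 h they were -0.30, -0.86, 0.41 and 0.93. All 60 h arrays thus lay below wild type, while the 96 h arrays spread to both sides. The fit gave -0.34 ± 0.18, 0.03 ± 0.20 and 0.04 ± 0.20, or -0.30, -0.02 and -0.05 without the 3 arrays. The 60 h value was called lower under 3 alternatives, a fit of that group's arrays alone (-0.32, adjusted p = 0.0432), scaled arrays (-0.49, adjusted p = 0.0295) and array weights (-0.28, adjusted p = 0.0265).

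In csn4null mre11 had a value on 1 of 3 arrays at 60 h, at 0.68, and was not tested there. Its arrays read 0.40, 0.01, 0.08 and 0.39 in the 72 h group, and -0.36, -0.27, 1.45 and 0.51 in the 96 h group. The 96 h arrays with the mutant RNA in Cy3 were both below 0 and those with it in Cy5 both above, and the csn5null arrays at 96 h split by dye in the same way. The part of the dye in this spread was not tested. The fitted values of 0.22 ± 0.20 and 0.33 ± 0.20 were not called (adjusted p = 0.499 and 0.216). Ordered by group mean, mre11 was highest in csn51 at 96 h (2.11 ± 0.55 SD) and at 72 h (1.97 ± 0.44), which did not differ beyond their spread. Then came csn53 at 72 h (1.13 ± 0.19) and csn51 at 60 h (0.74 ± 0.22), each step larger than the pooled SD. The lowest mean was that of csn5null at 60 h (-0.32 ± 0.13).

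The gene rad50 encodes the ATPase whose long coiled coils bridge DNA ends in the complex. In csn51 its ratios were 0.88, 0.93, 0.51 and 0.90 at 60 h, 1.77, 1.79, 1.49 and 1.15 at 72 h, then 0.98, 1.49, 1.30, 1.27 and 1.29 at 96 h. In csn53 they were 0.63, 0.63, 0.81, 0.33 and 0.61 at 60 h, 1.12, 1.04, 0.96 and 1.04 at 72 h, then 0.54, 0.51, 0.72, 0.36 and 0.41 at 96 h. Both alleles were above wild type on every array, with the highest mean of each at 72 h. The fitted values at 72 h were 1.55 ± 0.12 in csn51 (n = 4, adjusted p = 1.24e-13) and 1.04 ± 0.12 in csn53 (n = 4, adjusted p = 4.08e-09). These are ratios of 2.93 and 2.05. The other 4 allele groups lay between 0.51 ± 0.10 and 1.27 ± 0.10 and were all called.

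In the nulls rad50 was called at 96 h. The csn4null arrays at that age read 0.90, 0.24, 0.73 and 0.70, and those of csn5null read 0.51, 0.52, 0.35 and 0.54. All 8 were above wild type, and the 2 nulls overlapped. The fit gave 0.64 ± 0.12 in csn4null (adjusted p = 2.93e-05) and 0.48 ± 0.12 in csn5null (adjusted p = 0.0026). Without the 3 csn5null arrays the csn5null value was 0.52 (adjusted p = 0.0024), while a fit to the 4 arrays of that group alone gave an adjusted p of 0.0552. At 60 h rad50 read 0.02, 0.13 and -0.33 in csn4null, and 0.13, 0.14, 0.09, 0.10 and 0.07 in csn5null. At 72 h csn4null arrays read 0.43, -0.67, 0.14 and 0.39, and csn5null arrays 0.36, 0.25, -0.11 and 0.38, with the -0.11 on the array that stood apart. These 4 groups straddled or lay close to wild type. The csn4null value at 72 h, 0.07 ± 0.12, became 0.33 and was called (adjusted p = 0.0284) without replicate 2, the array at -0.67. By group mean, rad50 was highest in csn51 at 72 h (1.55 ± 0.30 SD), csn51 at 96 h (1.27 ± 0.18) and csn53 at 72 h (1.04 ± 0.06), each step exceeding the pooled SD. The next 4 steps, from csn51 at 60 h (0.81 ± 0.20) through csn4null at 96 h and csn53 at 60 and 96 h to csn5null at 96 h, did not.

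The gene nbs encodes the adaptor that brings ATM to the complex. In csn51 it read 0.87, 0.98, 0.73 and 0.82 at 60 h, 1.25, 1.06, 0.98 and 0.68 at 72 h, then 0.77, 1.76, 0.96, 1.57 and 1.45 at 96 h. In csn53 it read 0.56, 0.49, 0.58, 0.24 and 0.45 at 60 h, 0.44, 0.49, 0.30 and 0.33 at 72 h, then 0.59, 0.51, 0.34, 0.60 and 0.61 at 96 h. At each age every csn51 array was above every csn53 array, as for 1.05%, 4.40% and 2.55% of all features, and csn53 was above wild type throughout. The fitted values in csn51 were 0.85 ± 0.10, 1.01 ± 0.10 and 1.31 ± 0.09, the last a ratio of 2.48 (adjusted p = 4.04e-16). In csn53 they were 0.47 ± 0.09, 0.39 ± 0.10 and 0.54 ± 0.09, with the largest adjusted p-value at 0.002.

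In csn4null nbs read 0.07, 0.00 and -0.09 at 60 h, 0.25, 0.29, 0.31 and 0.31 at 72 h, then 0.84, 0.72, 0.59 and 0.61 at 96 h. The arrays of the 3 ages did not overlap, a separation not counted over all features. The fitted values were -0.02 ± 0.11, 0.29 ± 0.10 (adjusted p = 0.0255) and 0.69 ± 0.10 (adjusted p = 4.09e-07). At 72 h the call was lost without replicate 2, 3 or 4 of that group, at adjusted p-values of 0.055, 0.109 and 0.105. In csn5null nbs read -0.04, -0.02, 0.04, -0.02 and -0.23 at 60 h and 0.14, 0.03, 0.06 and 0.36 at 72 h. At 96 h it read 0.74, 0.32, 0.01 and 0.29, with the lowest on the array that stood apart. The 96 h value was 0.34 ± 0.10 (adjusted p = 0.0118) with all arrays and 0.44 (adjusted p = 0.00234) without the 3 arrays. It was not called without csn5null 96 h replicate 1 (0.22, adjusted p = 0.233) or replicate 4 (adjusted p = 0.0516), nor when its 4 arrays were fitted alone (adjusted p = 0.197). By group mean the 3 csn51 groups led, with 1.30 ± 0.42 (SD) at 96 h, 0.99 ± 0.24 at 72 h and 0.85 ± 0.10 at 60 h, neighbours that did not differ beyond their spread. Next stood csn4null at 96 h (0.69 ± 0.11), a step larger than the pooled SD, and last csn5null at 60 h (-0.05 ± 0.10).

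Xpc, also called mus210, is the damage sensor of nucleotide excision repair. In csn51 it read 1.31, 0.79, 0.89 and 0.92 at 60 h, 1.54, 1.43, 1.09 and 0.90 at 72 h, then 0.04, 1.12, 0.81, 0.86 and 0.93 at 96 h. In csn53 it read 0.83, 0.83, 0.72, 0.52 and 0.63 at 60 h, 1.37, 0.48, 0.46 and 0.80 at 72 h, then 0.57, 0.55, 0.47, 0.23 and 0.21 at 96 h. The alleles overlapped at every age, and 1 csn51 array at 96 h lay next to wild type. The fitted values in csn51 were 0.97 ± 0.13, 1.27 ± 0.13 and 0.76 ± 0.12, against 0.72 ± 0.12, 0.78 ± 0.13 and 0.42 ± 0.12 in csn53. The largest adjusted p-value of the 6 was 0.00355, in csn53 at 96 h, and the highest ratio was 2.42, in csn51 at 72 h.

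In csn4null Xpc read 0.24, 0.42 and -0.18 at 60 h, 0.28, 0.55, 0.41 and 0.43 at 72 h, then 1.11, 0.87, 0.61 and 0.28 at 96 h. From 72 h on, every array was above wild type. The fit gave 0.14 ± 0.15, 0.42 ± 0.13 (adjusted p = 0.0158) and 0.72 ± 0.13 (adjusted p = 3.45e-05). The 72 h call was lost without replicate 2, 3 or 4 of that group (adjusted p = 0.0655, 0.0701 and 0.0728). In csn5null Xpc read -0.13, -0.03, -0.09, -0.12 and -0.01 at 60 h, 0.20, -0.05, 0.10 and 0.15 at 72 h, then 0.89, 0.55, 0.01 and 0.45 at 96 h. Only the 96 h group was called, at 0.48 ± 0.13 (adjusted p = 0.00805) with all arrays and 0.61 (adjusted p = 0.00173) without the 3 arrays. Without csn5null 96 h replicate 1 it was 0.36 (adjusted p = 0.13), and with that group fitted alone the adjusted p was 0.123. By group mean Xpc was highest in csn51 at 72 h (1.24 ± 0.30 SD) and lowest in csn5null at 60 h (-0.08 ± 0.05). Only the last of the 11 steps between neighbours exceeded the pooled SD. In the RefSeq gene table Xpc overlaps CG8155, which the array also carries, and the sources used here do not say whether the probes tell strands apart. CG8155 was not called higher in any group and was called lower in 2 groups, csn53 at 60 h (-0.38, adjusted p = 0.00778) and csn53 at 96 h (-0.31, adjusted p = 0.036).

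Of the 5 members, p53 had the smallest fitted values in csn51 at 60 and 72 h and in all 3 groups of csn53. In csn51 it read 0.47, 0.59, 0.20 and 0.61 at 60 h, 0.70, 0.57, 0.88 and 0.64 at 72 h, then 0.89, 0.53, 1.12 and 1.10 on the 4 arrays with a value at 96 h. In csn53 it read 0.53, 0.37, 0.43, -0.46 and 0.42 at 60 h, 0.14, 0.38, 0.05 and 0.21 at 72 h, then 0.53, 0.51, 0.44, 0.11 and 0.45 at 96 h. All csn51 arrays were above wild type, and csn53 had 1 array below it, at 60 h. The fitted values in csn51 were 0.47 ± 0.12 (adjusted p = 0.002), 0.70 ± 0.13 (adjusted p = 2.19e-05) and 0.91 ± 0.12 (adjusted p = 6.29e-08). In csn53 they were 0.26 ± 0.11 (adjusted p = 0.0497), 0.19 ± 0.12 (adjusted p = 0.252) and 0.41 ± 0.11 (adjusted p = 0.00297). The 60 h call of csn53 lies at the threshold and was lost without replicate 1, 2, 3 or 5 of that group (adjusted p = 0.222, 0.135, 0.166 and 0.159), and also without any of 33 single arrays of other groups.

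In csn4null p53 had values of 0.32 and -0.01 on 2 arrays at 60 h, 0.07, 0.02, 0.08 and 0.31 at 72 h, then 0.88, 0.16, 0.43 and 0.25 at 96 h. The 96 h group was called at 0.43 ± 0.12 (adjusted p = 0.0066). Without csn4null 96 h replicate 1, the array at 0.88, it was 0.28 (adjusted p = 0.141). In csn5null p53 read 0.09, 0.20, 0.10, 0.14 and -0.46 at 60 h, -0.15, -0.15, 0.39 and -0.14 at 72 h, then 0.28, -0.02, -0.02 and 0.29 at 96 h. The arrays at -0.46 and 0.39 were 2 of the 3 that stood apart. The fitted values were 0.02 ± 0.11, -0.01 ± 0.12 and 0.13 ± 0.12, and 0.13, -0.15 and 0.18 without the 3 arrays, none of them called. By group mean the order ran from csn51 at 96 h (0.91 ± 0.28 SD), at 72 h (0.70 ± 0.14) and at 60 h (0.47 ± 0.19) to csn4null at 96 h (0.43 ± 0.32). Of these neighbours, only csn51 at 72 and 60 h differed by more than their pooled SD. The gene overlaps Gr94a and the antisense RNA asRNA:CR46089, mre11 overlaps Osi21 and nbs overlaps CG14174, none of them measured here by a named entry of its own.

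Setting csn5null against the mean of the 2 alleles asks whether the loss of CSN5 and the allele mutants differ in these genes. Every member was lower in csn5null at 60 h, where 22.4% of features were, and at 72 h, where 16.3% were. At 96 h 4 members were lower than the mean of the alleles, against 14.5% of features. The widest difference was that of mre11, at -0.92 ± 0.22 (SE), -1.49 ± 0.25 and -1.23 ± 0.24 at the 3 ages. The difference of rad50 was -0.60, -1.08 and -0.41, with adjusted p-values of 0.000236, 1.75e-07 and 0.0198. For nbs it was -0.71, -0.55 and -0.59, with the largest adjusted p-value at 0.000428. Xpc differed by -0.91 and -0.93 at 60 and 72 h, while at 96 h its difference of -0.12 (95% interval -0.43 to 0.20) was not called. The difference of p53 was -0.35, -0.46 and -0.53, with adjusted p-values of 0.0407, 0.0187 and 0.00617.

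In single arrays, csn5null lay wholly below csn51 for 4, 5 and 4 members at the 3 ages, against 12.8%, 12.7% and 11.1% of all features. It lay wholly below csn53 for 4, 3 and 0 members, against 12.8%, 10.7% and 8.23% of features. Fitted values of csn5null at 96 h lay near those of csn53 for rad50 (0.48 against 0.51) and Xpc (0.48 against 0.42). They were lower than in csn53 for mre11 (0.04 against 0.44), nbs (0.34 against 0.54) and p53 (0.13 against 0.41). In csn51 mre11, rad50, nbs, Xpc and p53 stood higher, at 2.09, 1.27, 1.31, 0.76 and 0.91. The 96 h differences thus rest more on csn51, and csn5null was not tested against csn53 alone. Without the 3 csn5null arrays the p53 difference at 60 h was -0.23 (adjusted p = 0.162) and that of rad50 at 96 h was -0.36 (adjusted p = 0.0615), so neither was called, while the other 12 calls stayed. Leaving out csn5null 60 h replicate 5 alone gave -0.23 for p53 (adjusted p = 0.19), and 9 other single arrays of the 3 groups at 60 h likewise ended that call. Scaling the arrays moved the rad50 difference at 96 h to -0.19 (adjusted p = 0.391) and the p53 difference at 60 h to -0.22 (adjusted p = 0.167), and both calls ended. A fit of the 3 groups' own arrays also ended the p53 call at 60 h (adjusted p = 0.0907). At 72 h the p53 call was lost without csn5null replicate 1, 2 or 4 (adjusted p = 0.0667, 0.0653 and 0.0637), and the rad50 call at 96 h without csn5null 96 h replicate 3 (adjusted p = 0.0698).

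**Figure D2:**
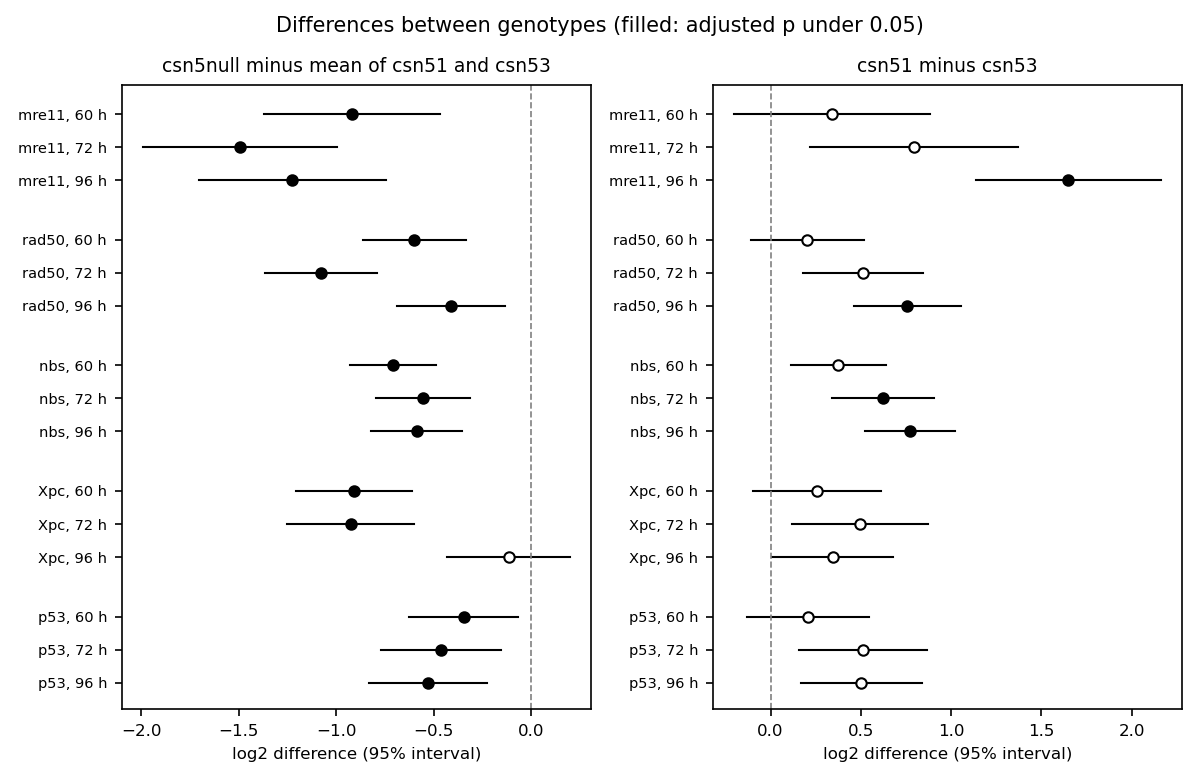
Fitted log2 difference (horizontal axis, with its 95% interval) for each member and age (rows), in csn5null minus the mean of csn51 and csn53 (left) and in csn51 minus csn53 (right). Filled points passed an adjusted p of 0.05. On the left 14 of 15 points are filled and all are below 0, and on the right 4 of 15 are filled and all are above 0.

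The alleles csn51 and csn53 were also set against each other. At 60 h 0 members were called in csn51 minus csn53, by limma after adjustment, where 0.0808% of features were called higher in csn51. The unadjusted p of nbs was 0.00665 there, the only one of the 5 under 0.05. At 72 h nbs was higher in csn51 by 0.62 ± 0.14 (adjusted p = 0.00831), against 1.34% of features called higher. At 96 h mre11, rad50 and nbs were higher in csn51 by 1.65 ± 0.25, 0.76 ± 0.15 and 0.77 ± 0.12, against 1.97% of features. Their adjusted p-values were 4.75e-05, 0.000847 and 7.66e-05. These 3 encode the whole end-binding complex, and the csn51 excess of mre11 held rank 20 of 5931 features. Xpc differed by 0.34 (95% interval 0.01 to 0.68) and p53 by 0.50 (0.17 to 0.84) at 96 h, and neither was called. Xpc was called without csn51 96 h replicate 1 (0.55, adjusted p = 0.0187) and p53 without csn51 96 h replicate 2 (0.64, adjusted p = 0.028). Leaving out the 3 csn5null arrays, which enter the shared estimate of spread, brought calls of rad50 (adjusted p = 0.0488) and p53 (0.0442) at 72 h and of p53 at 96 h (0.036). At 72 h rad50 was also called without csn51 72 h replicate 4 (adjusted p = 0.0421), and Xpc without csn53 72 h replicate 1 (adjusted p = 0.0296). With array weights, which give arrays that vary more less weight, further differences were called. They were nbs at 60 h (adjusted p = 0.0159), mre11 (1.09, adjusted p = 0.0019), rad50 (adjusted p = 0.00174), Xpc (adjusted p = 0.00645) and p53 (adjusted p = 0.0112) at 72 h, and both Xpc (0.52, adjusted p = 0.00785) and p53 (adjusted p = 0.0115) at 96 h. Scaling all arrays to one median absolute value lowered the 96 h excess of rad50 to 0.41 (adjusted p = 0.357) and that of nbs to 0.43 (adjusted p = 0.103), and a fit of the 2 groups' own arrays ended the nbs calls at 72 and 96 h (adjusted p = 0.12 and 0.088).

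Between the nulls 0 members were called at any age, where 9.92% of features were called in either direction at 60 h, 10.6% at 72 h and 4.91% at 96 h. The differences of csn4null minus csn5null ranged from -0.15 for rad50 to 0.31 for Xpc at 72 h and from 0.16 for rad50 to 0.35 for nbs at 96 h. The nbs difference at 96 h had an interval of 0.07 to 0.63 and an unadjusted p of 0.0154, the only one under 0.05 among the tests at the 3 ages. At 72 h Xpc was the 1 member of 5 whose arrays did not overlap between the nulls, with 0.28 to 0.55 in csn4null and -0.05 to 0.20 in csn5null, where 14.6% of all features did not overlap in either direction. With array weights that Xpc difference was called (0.40, adjusted p = 0.0437). Without the 3 csn5null arrays no difference was called, and they ran from -0.26 for rad50 to 0.34 for Xpc at 72 h and from 0.11 for Xpc to 0.38 for mre11 at 96 h. Intervals this wide do not show that the 2 nulls act alike.

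With all arrays, a change of the ratio to wild type with age was called in csn51 and csn4null only. In csn51 the value at 96 h exceeded that at 60 h for mre11 by 1.35 ± 0.27 (adjusted p = 0.000109), for rad50 by 0.46 ± 0.16 (adjusted p = 0.0171), for nbs by 0.46 ± 0.13 (adjusted p = 0.0049) and for p53 by 0.44 ± 0.18 (adjusted p = 0.0431). Those are 4 of 5 members, against 17.2% of features. For Xpc the change was -0.21 ± 0.18 (adjusted p = 0.365). In csn4null rad50 was higher at 96 h by 0.70 ± 0.18 (adjusted p = 0.00616) and nbs by 0.71 ± 0.15 (adjusted p = 0.00107), 2 of 4 tested members, against 5.74% of features. In csn53 0 of 5 members were called higher at 96 h, against 15.4% of features, with changes from -0.30 to 0.15 and no unadjusted p under 0.05. The lowest of these, Xpc, was called lower at 96 h in a fit of the 2 groups' own arrays (-0.30, adjusted p = 0.0321) and with array weights (-0.32, adjusted p = 0.00306). In csn5null 0 were called, against 3.70% of features, though rad50, nbs and Xpc had unadjusted p-values of 0.0216, 0.00565 and 0.00387. Without the 3 csn5null arrays nbs (0.45, adjusted p = 0.0209) and Xpc (0.70, adjusted p = 0.00764) were called.

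Some of these age calls rest on single arrays. The rad50 change in csn4null was not called without csn4null 60 h replicate 3 (0.56, adjusted p = 0.0632). In csn51 the rad50 change was lost without csn51 60 h replicate 3 (0.36, adjusted p = 0.0911) or csn51 96 h replicate 2 (adjusted p = 0.0529). The p53 change in csn51 was lost without any of 5 arrays, csn51 96 h replicate 1, 3 or 5 and csn51 60 h replicate 1 or 3, at adjusted p-values of 0.0602, 0.13, 0.123, 0.0798 and 0.143. Scaling the arrays left 0.27, 0.28 and 0.26 for rad50, nbs and p53 in csn51 (adjusted p = 0.25, 0.125 and 0.267), so of the 4 only mre11 was called under it. The Xpc change in csn4null, 0.58 (adjusted p = 0.0504), lay at the threshold and was called when any of 12 single arrays was left out. That in csn5null, 0.54 (adjusted p = 0.0515), lay there too. It was called when any of 2 arrays of its groups or 10 arrays of other groups was left out.

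**Figure D3:**
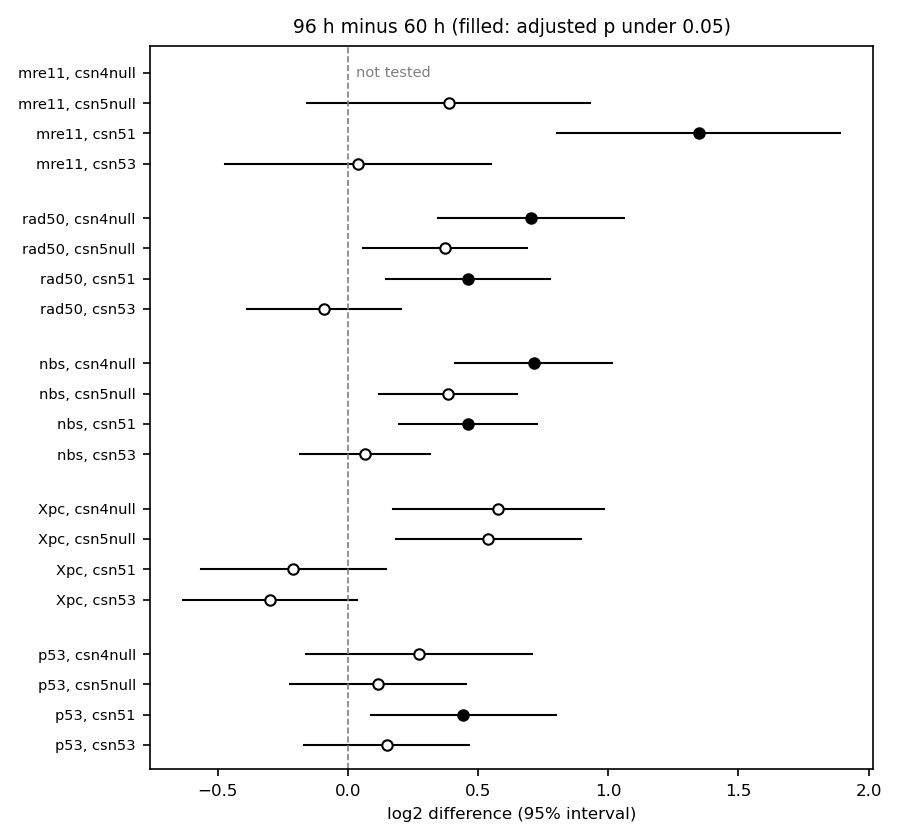
Fitted log2 change of the mutant over wild-type ratio, 96 h minus 60 h (horizontal axis, with its 95% interval), for each member and genotype (rows). Filled points passed an adjusted p of 0.05. The filled points are rad50 and nbs in csn4null and mre11, rad50, nbs and p53 in csn51, and mre11 in csn4null was not tested.

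The 10 pairs of members had correlations between 0.71 and 0.95 over the 12 fitted group values, with a median of 0.82. The 12 points share the array platform, and groups of one age may share wild-type RNA, so these are descriptions. By the same measure over 4647 named features, the genes most like mre11 were Ms (r = 0.91), eIF2A (0.90) and CG31706 (0.90). Those most like rad50 were eIF3m (0.94), chinmo (0.92) and RPA1 (0.92). For nbs they were CG18596 (0.95), p53 itself (0.95) and unc79 (0.93), and for p53 they were unc79 (0.96), nbs (0.95) and CG6769 (0.93). The closest to Xpc were CG1648 (0.92), Rilpl (0.89) and Rcd5 (0.89). The 3 genes of the end-binding complex were not each other's closest, with rad50 35th in rank to mre11 at 0.82 and nbs 64th at 0.78. The correlations of mre11 include its csn4null point at 60 h, which rests on 1 array and was not tested. The points of Ms and CG31706 in that group, and of Ms in csn51 at 96 h, were not tested either.

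Other genes of DNA repair and of the p53 pathway mostly did not share the pattern of the 5 members. Of 6 lists of such genes, 34 genes were on the array. In csn51 3, 5 and 4 of the 34 were higher and 9, 2 and 5 lower at 60, 72 and 96 h. The medians over the 34 genes were -0.20, 0.02 and 0.02, against 0.01, -0.01 and -0.02 over all features. In csn53 2, 7 and 2 were higher and 13, 2 and 5 lower, with medians of -0.19, 0.06 and -0.03, against 0.00, 0.00 and -0.01 over all features. In csn5null 2, 1 and 3 of 34 were higher and 0, 3 and 1 lower, and without the 3 arrays 5, 1 and 3 were higher and 0, 1 and 2 lower. The 3 lower genes at 72 h, RPA2, Ercc1 and pic, were not called without them, where Tfb1 was the 1 lower gene. In csn4null 0 of 32, 2 of 34 and 5 of 34 were higher and 2, 2 and 3 lower. Over all features in csn51, 22.9%, 16.9% and 28.1% were lower at the 3 ages, and 24.9%, 14.2% and 19.5% in csn53. In csn5null 3.39%, 9.44% and 7.79% of features were lower, and in csn4null 8.08%, 12.4% and 16.3%. The shares of features called higher in each group are those given with the member counts.

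**Figure D4:**
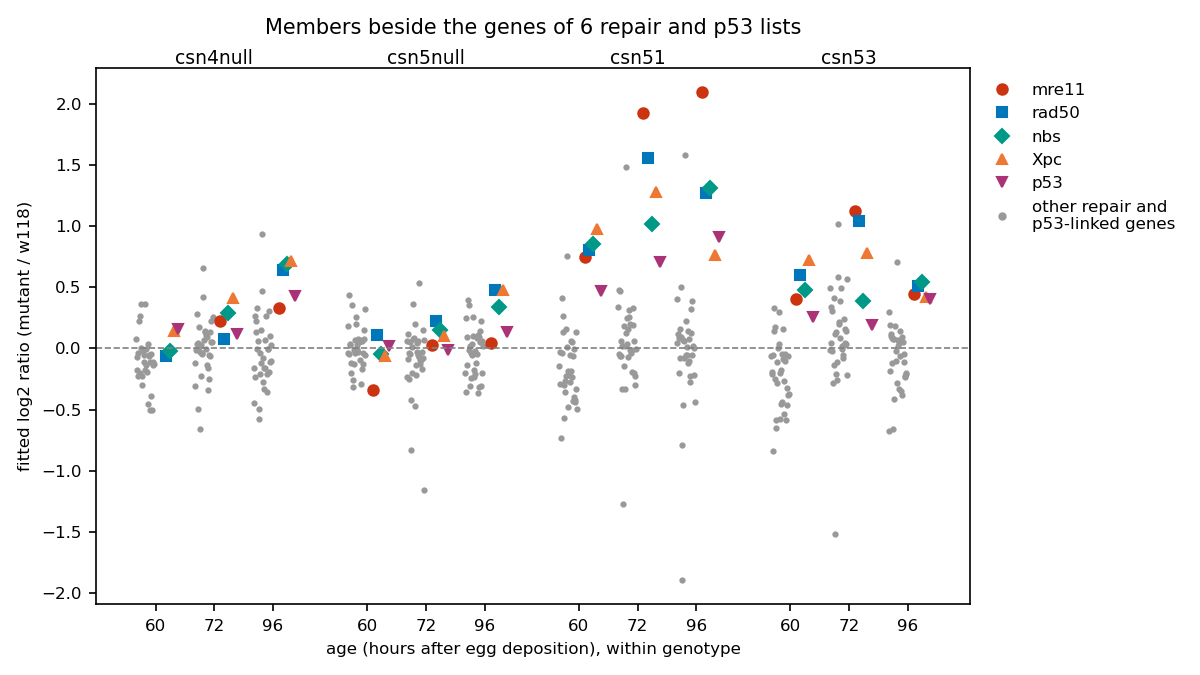
Fitted log2 ratio of mutant over w118 larvae (vertical axis) of the 5 members (coloured symbols) and of the genes of 6 repair and p53 lists (grey points) in each genotype and age (horizontal axis). The grey points lie on both sides of 0 in the csn51 and csn53 groups, while all members there are above 0. Medians over all 34 grey genes lie between -0.20 and 0.06 in these groups. At 60 h more of them were called lower than higher, 9 against 3 in csn51 and 13 against 2 in csn53.

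Among 10 measured genes of homologous recombination and break processing, RPA1, the large subunit of the protein that coats single-stranded DNA, was called higher in all 6 groups of csn51 and csn53. In csn51 it was at 0.76, 1.49 and 1.58 at 60, 72 and 96 h, the last with an adjusted p of 2.36e-14. In csn53 it was at 0.30, 1.02 and 0.71. It was also called in csn4null at 72 and 96 h (0.42 and 0.93) and in no csn5null group, where it was at 0.26, 0.20 and 0.26. Without the 3 arrays RPA1 was called in csn5null at 60 h (0.46, adjusted p = 0.00369). RPA2, another subunit of the same protein, went both ways, with -0.48 in csn51 and -0.57 in csn53 at 60 h and 0.65 in csn4null and 0.59 in csn53 at 72 h. The Holliday junction nuclease gene Gen was lower in csn51 at 72 h (-1.27) and 96 h (-1.89, on 2 arrays), and in csn53 at every age, most at 72 h (-1.52, adjusted p = 2.48e-05). Also lower were okr, a Rad54 helicase gene, in csn53 at 60 h (-0.38) and Nse1, a Smc5/6 subunit gene, in csn51 at 96 h (-0.79).

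Of 11 measured genes of nucleotide excision repair, the pathway that Xpc starts, 0, 2 and 2 were higher and 5, 0 and 2 lower in csn51 at 60, 72 and 96 h. In csn53 0, 3 and 1 were higher and 7, 0 and 1 lower. At 60 h the helicase gene Xpd was lower in csn51 (-0.43) and in csn53 (-0.54, adjusted p = 1.01e-07). Also lower at 60 h was the ligase gene DNAlig1, by -0.73 in csn51 and -0.84 in csn53. The nuclease subunit gene Ercc1 was lower at 60 h in csn51 (-0.30) and higher there at 96 h (0.50). Among the 3 checkpoint genes measured, lok, the fly Chk2 kinase that acts on p53, was called higher in csn51 at 72 h (0.33, limma adjusted p = 0.0106), while Rad9 was lower in csn4null at 96 h (-0.28).

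Of the 5 measured p53 target and cell death genes, 2 were called higher in csn51 at 60 h, the caspase genes Dcp-1 (0.41) and Dronc (0.26). At 72 h the apoptosome gene Dark was higher (0.47) and Dronc lower (-0.33), while at 96 h, where p53 itself was highest, their values ran from -0.08 for Debcl to 0.16 for Dcp-1 with no adjusted p below 0.163. In csn53 Dcp-1 was higher at 60 h (0.33), Debcl, a Bcl-2 family gene, was lower at 72 h (-0.28) and Corp, a target that feeds back on p53, was lower at 96 h (-0.67). In csn5null at 96 h Dcp-1 read 0.85, 0.57, -0.16 and 0.33 and was called (0.40), with the lowest value on the array that stood apart. Debcl read 0.26, 0.66, 0.07 and 0.42 there and was called too (0.35). Without the 3 arrays the values were 0.58 for Dcp-1 (adjusted p = 9.24e-05) and 0.44 for Debcl (adjusted p = 0.00137). The best known targets of fly p53, rpr, hid and skl, were on the list but not among its 5 genes found by name on the array. XRCC1 was the 1 measured gene of the list named end joining, and is no core gene of that pathway. It read -0.03, -0.04, 2.00 and 0.19 in csn5null at 72 h, the only group where it was called (0.53, adjusted p = 0.0204). The 2.00 lay on the array that stood apart, and without the 3 arrays the value was 0.04 (adjusted p = 0.859), while XRCC1 was then called lower at 96 h (-0.39, adjusted p = 0.00836). The list named base excision and mismatch repair held 4 measured genes, Ogg1, Tdg, Pms2 and PolZ1, of which PolZ1 belongs to neither pathway. None of them was called in any group, with the smallest adjusted p at 0.0673 for Ogg1.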

How the data were processed

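Whole-larva RNA of mutants and age-matched wild type was compared on 2-colour arrays with dye reversals, per the labels. The authors deposited 1 table of ratios between both channels, whose values were read here as log2. Background correction, normalization, filtering, log base and direction are not given in the sources used here. Another base would multiply all values by 1 constant without changing a p-value. All 6621 entries were read, 32 controls and 28 entries without a value were left out, and entries of one gene were averaged, which left 6187 features. Arrays held values for 5780 to 6561 entries, had medians from -0.016 to 0.027, and their number limits the precision. Names come from the platform annotation, updated through the RefSeq gene table (Release 6 plus ISO1 MT), for which 4993 of 5072 entries with 1 symbol matched. Another 176 entries with several symbols were not named.

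Ratios were fitted over all 51 arrays with 12 group terms and 1 dye term by limma 3.58.1 (statmod 1.5.0, R 4.3.3), with moderated standard errors and Benjamini-Hochberg adjustment over all features with at least 2 values in each group. This gives p-values for each group, for differences between genotypes and for 96 h against 60 h. The spread of a gene is taken from all arrays, so a standard error can miss a wide spread within 1 group. The fit was tested on simulated data. Plots used matplotlib 3.10.9 in Python 3.11.15. Members and lists were chosen with earlier results of these data known. All members are named, with the 3 genes most like each, and up to 5 called genes per list by adjusted p, from which the examples come. Alternatives were no dye term, own arrays, centring, scaling, complete features, single entries, array weights, a replicate block, leaving out arrays and, chosen after seeing the data, the sign of csn51 and csn53 turned.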

Additional observations from a re-analysis of the deposited data

Results flagged for a closer look

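Of 55 member groups with 4 or 5 values, 8 held an array far from the others by Dixon's criterion, where chance gives about 1 in 20. Of these, 4 lay on the csn5null arrays that stood apart, namely mre11 at 0.27 on csn5null 72 h replicate 3, p53 at 0.39 on the same array, p53 at -0.46 on csn5null 60 h replicate 5 and rad50 at 0.35 on csn5null 96 h replicate 3. The other 4 lay in the alleles. They were rad50 at 0.51 on csn51 60 h replicate 3, Xpc at 0.0365 on csn51 96 h replicate 1, p53 at -0.46 on csn53 60 h replicate 4 and p53 at 0.11 on csn53 96 h replicate 4. The mutant effect itself differed between 96 and 60 h in csn4null for rad50 (0.70) and nbs (0.71), and in csn51 for mre11 (1.35), rad50 (0.46), nbs (0.46) and p53 (0.44), each by the test of the difference.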

How the results depend on the processing

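The 37 calls of members in groups numbered 26 to 41 over the alternatives other than single arrays and 34 to 37 with single arrays left out, and the 26 came from complete features, which leave out mre11 and p53. The 18 differences between genotypes numbered 17 to 19 with single arrays left out, 11 over complete features, 14 with scaled arrays, 15 with own-array fits and 26 with array weights. The 6 differences between ages numbered 4 to 9 with single arrays left out and 11 with array weights. The replicate block left 37, 18 and 6 calls. Same-numbered arrays were not paired, since in 0 of 18 same-age comparisons of genotypes did every correlation of residuals pass 0.1, and the consensus correlation of the block was 0.0045. With the sign of csn51 and csn53 turned, chosen after seeing the data, csn5null minus their mean was 0.23, 0.81, 0.62, 0.78 and 0.38 for mre11, rad50, nbs, Xpc and p53 at 60 h. It was 1.55, 1.51, 0.85, 1.13 and 0.44 at 72 h and 1.31, 1.37, 1.27, 1.07 and 0.79 at 96 h, with adjusted p under 0.05 for all but mre11 at 60 h (0.44), and values against wild type change sign alone. Own-array fits ended the 3 csn5null calls at 96 h. Array weights added calls of mre11 (-0.28) and p53 (0.14) in csn5null at 60 h, rad50 in csn5null at 72 h (0.30) and mre11 in csn53 at 60 h (0.49). The table holds ratios alone, so signal over background was not used.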
